A study of Mus musculus with 11 samples.

Results

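The genes described here were those of vascular endothelial growth factor (VEGF) signalling between islet endocrine cells and islet capillaries. They were 9 of the 55401 gene rows counted and were taken by symbol: the ligand *Vegfa*, its receptors *Kdr* and *Flt1*, the co-receptor *Nrp1*, the angiopoietin receptor *Tek*, the endothelial junction genes *Pecam1* and *Cdh5*, and the endothelial products *Esm1* and *Plvap*. They were followed in RNA-seq libraries of cells that FACS had separated from the islets of 4 male C57BL6/J mice on chow. All groups carried the same alleles, a rat insulin promoter Cre, a STOP-tdTomato reporter that this Cre switches on in beta cells, and *Nnat*-EGFP, an eGFP reporter of the imprinted gene *Nnat*. The 11 libraries were 3 of non-beta cells (tdTomato-negative, mice 1 to 3), 4 labelled NNAT-negative beta cells and 4 labelled NNAT-positive beta cells (both tdTomato-positive, mice 1 to 4). The mice were 10 weeks old by the sample labels, and the study's text gives another age. Mouse 4 had no non-beta library. The sort used tdTomato, eGFP and a dye for dead cells, and no gate on endothelial cells or leukocytes is stated, so the non-beta fraction held the tdTomato-negative islet cells of any type.

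Islets are among the most densely vascularised tissues, and their capillaries are fenestrated. Endocrine cells secrete VEGF-A, which binds KDR (VEGF receptor 2, the main signalling receptor) and FLT1 (VEGF receptor 1, which binds VEGF-A tightly and can act as a decoy) on endothelial cells, with NRP1 as a co-receptor. Endothelial cells also carry TEK (TIE2), the receptor of the angiopoietins, the adhesion molecules PECAM1 and VE-cadherin (CDH5), the secreted proteoglycan ESM1, and PLVAP, which forms the diaphragms of fenestrae.

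The promoters of the ligand and of its pair of tyrosine kinase receptors are shown to set the gene whose transcripts beta cells held beside a pair that they all but lacked. They are RefSeq sequences of GRCm38.p6, from 250 bases before to 50 bases after a start site, read 5′ to 3′ on the gene's strand. Capitals mark GGGCGG, the core of the GC box, and AGGAAG, which holds the GGAA core of ETS factors, on either strand (CCGCCC and CTTCCT on the other). The regions are chr17:46032328-46032627 (minus strand) for *Vegfa*, chr5:75978406-75978705 (minus strand) for *Kdr* and chr5:147725962-147726261 (minus strand) for *Flt1*.
Vegfa: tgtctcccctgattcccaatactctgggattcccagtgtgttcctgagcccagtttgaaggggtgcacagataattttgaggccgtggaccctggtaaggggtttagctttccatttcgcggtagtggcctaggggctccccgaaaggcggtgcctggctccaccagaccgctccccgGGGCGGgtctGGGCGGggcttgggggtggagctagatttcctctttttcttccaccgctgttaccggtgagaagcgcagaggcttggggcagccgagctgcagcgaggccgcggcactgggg
Kdr: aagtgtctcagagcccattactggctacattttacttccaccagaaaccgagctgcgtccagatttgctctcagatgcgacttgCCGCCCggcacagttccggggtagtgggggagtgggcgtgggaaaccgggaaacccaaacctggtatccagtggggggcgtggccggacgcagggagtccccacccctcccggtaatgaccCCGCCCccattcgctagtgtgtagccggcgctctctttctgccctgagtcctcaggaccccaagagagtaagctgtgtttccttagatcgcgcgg
Flt1: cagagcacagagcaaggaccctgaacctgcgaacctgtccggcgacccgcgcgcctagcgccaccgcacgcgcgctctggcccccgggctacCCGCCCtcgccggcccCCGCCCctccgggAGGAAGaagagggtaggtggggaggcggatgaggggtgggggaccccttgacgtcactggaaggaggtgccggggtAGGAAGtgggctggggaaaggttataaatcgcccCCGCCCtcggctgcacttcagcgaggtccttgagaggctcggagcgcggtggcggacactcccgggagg
GGGCGG was present 2 times in the promoter of *Vegfa*, 2 times in that of *Kdr* and 3 times in that of *Flt1*. Of all 32851 promoters of this length, 35.7% held GGGCGG on either strand. AGGAAG was present 2 times in the promoter of *Flt1*, was not among the letters of the *Kdr* and *Vegfa* windows, and was held by 35.4% of all promoters. Promoters were matched for 6 of the 9 genes (7 windows, since *Vegfa* has an internal one), and 5 of the 7 windows held GGGCGG and 2 held AGGAAG. *Pecam1*, *Cdh5* and *Plvap* had no entry.

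Total counts per library were between 30420352 and 43238376, so that 3 counts, the floor used here, corresponded to between 0.0647 and 0.102 counts per 1000000 (CPM, on library sizes scaled by TMM). The fractions were checked with marker lists. The 6 beta cell markers (*Ins1*, *Ins2*, *Mafa*, *Slc2a2*, *Nkx6-1* and *Ucn3*) were all higher, and the 5 alpha cell markers all lower, in both beta fractions than in non-beta cells. *Nnat* was lower in the libraries labelled NNAT-positive (46.0 to 101 CPM) than in the same mouse's library labelled NNAT-negative (66.5 to 153 CPM), and a table of the study names the beta fractions the other way round. The fractions are therefore called by their labels, and any direction between them turns if the labels are crossed. A gene counted as called where edgeR's quasi-likelihood test of 17424 genes, with the mouse as a block, gave an adjusted *p* (Benjamini-Hochberg) under 0.01 and the change exceeded 2-fold.

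*Vegfa* was the member made by beta cells. By edgeR's fit with the mouse as a block, it was 2.24 times as high in NNAT-negative libraries as in non-beta cells. In NNAT-positive libraries it was 2.36 times as high. The other 8 members had at most 2.75 CPM in any beta cell library. *Vegfa* (ENSMUSG00000023951.18, chr17:46016993-46032369, minus strand) had 106, 125 and 132 CPM in non-beta cells (mice 1 to 3). In beta cells (mice 1 to 4) its levels were 288, 244, 281 and 482 CPM under the label NNAT-negative and 289.6, 281, 284 and 512 CPM under the label NNAT-positive. The lowest beta cell library lay above the highest non-beta library, the beta fractions overlapped, and both libraries of mouse 4 stood above those of the other mice. The means were 121 ± 13.2 CPM (SD, *n*=3) in non-beta cells, 324 ± 107 CPM (SD, *n*=4) in the NNAT-negative and 342 ± 113 CPM (SD, *n*=4) in the NNAT-positive libraries. Ratios of these means exceed the fold changes of the blocked fit, since the beta means include mouse 4, which had no non-beta library. The log2 fold change against non-beta cells was 1.24 (SE 0.10, adjusted *p*=5.9e-06) for the libraries labelled NNAT-positive and 1.16 (SE 0.10, adjusted *p*=8.15e-06) for those labelled NNAT-negative in edgeR's quasi-likelihood test. These comparisons share the 3 non-beta libraries. Within mice 1 to 3, the differences in log2 CPM were 1.45, 1.17 and 1.11 for NNAT-positive and 1.44, 0.97 and 1.09 for NNAT-negative libraries. In bulk libraries, fewer cells of a type and less RNA per cell cannot be told apart, and the 121 CPM of the non-beta fraction are an average over alpha, delta, endothelial and other cells.

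**Figure D1:**
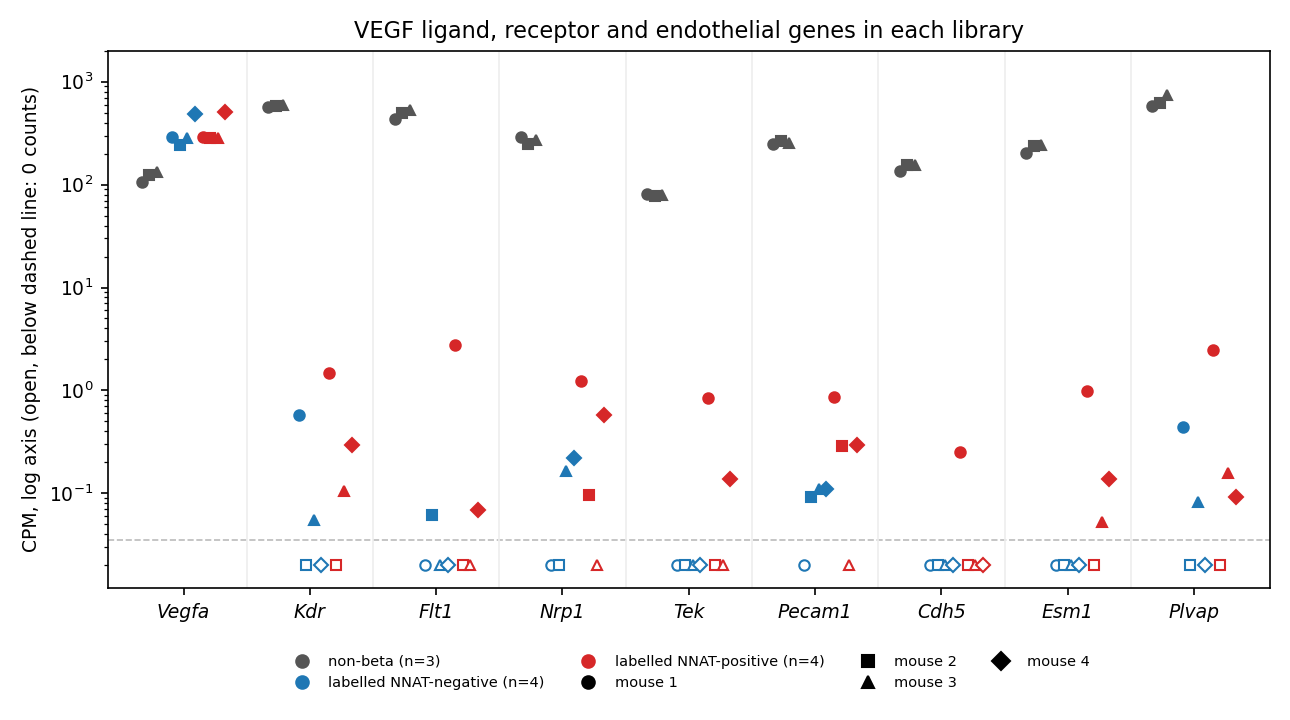
CPM of each member (log axis) in each library, with colour for the fraction by its label, a symbol for the mouse, and open symbols below the dashed line for 0 counts. *Vegfa* was above 100 CPM in every library and higher in the beta cell libraries, whereas the other 8 genes had at least 77.1 CPM in non-beta cells and at most 2.75 CPM in any beta cell library.

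The VEGF receptors were genes of the non-beta fraction. *Kdr* (ENSMUSG00000062960.10, chr5:75932827-75978458, minus strand) had 564, 580.4 and 595 CPM in non-beta cells (mice 1 to 3). Among beta cells (mice 1 to 4), the NNAT-negative libraries had 0.580, 0, 0.0555 and 0 CPM and the NNAT-positive libraries 1.46, 0, 0.105 and 0.297 CPM. The groups did not overlap, and 3 of the 8 beta cell libraries held no *Kdr* count. *Flt1* (ENSMUSG00000029648.13, chr5:147561604-147726011, minus strand) had 433, 493 and 525 CPM in non-beta cells. In the NNAT-negative libraries its counts were 0 except for 2 counts in mouse 2 (0.0609 CPM), and in the NNAT-positive libraries it had 2.75, 0, 0 and 0.0685 CPM. Of the 101 *Flt1* counts in the NNAT-positive libraries, 98 came from mouse 1. *Nrp1* (ENSMUSG00000025810.9, chr8:128358604-128503363, plus strand), which neurons and other cells also use as a semaphorin receptor, had 289, 248 and 274 CPM in non-beta cells. It had 0, 0, 0.166 and 0.219 CPM in the NNAT-negative and 1.24, 0.0959, 0 and 0.571 CPM in the NNAT-positive libraries. It shared 80 exonic bases with the microRNA gene *Mir1903* on the same strand. No beta cell library held more than 2.75 CPM of either receptor or of the co-receptor.

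Against non-beta cells, the log2 fold changes in the libraries labelled NNAT-positive were −10.34 (SE 0.74) for *Kdr*, −9.44 (SE 0.85) for *Flt1* and −9.50 (SE 0.59) for *Nrp1*. In edgeR's quasi-likelihood test the adjusted *p* was 2.12e-06, 1.01e-05 and 8.71e-07. In the libraries labelled NNAT-negative the changes were −11.90 (SE 0.81, adjusted *p*=1.32e-06) for *Kdr* and −11.59 (SE 0.68, adjusted *p*=5.25e-07) for *Nrp1* by the same edgeR test. With 2 counts in all, *Flt1* was 32362 times as high per count of depth in non-beta cells as in the NNAT-negative libraries, with a 95% Clopper-Pearson interval from 8958 to 267228, which covers counting error only. Adjusted *p* for *Flt1* there was 5.21e-06 in edgeR's test.

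*Tek* (ENSMUSG00000006386.15, chr4:94739289-94874976, plus strand) was the lowest of the endothelial members in non-beta cells, with 80.4, 77.1 and 79.0 CPM. It had 0 counts in all 4 NNAT-negative libraries and 0.843, 0, 0 and 0.137 CPM in the NNAT-positive libraries. Taking 3 counts over the group as the floor, it was at least 3547-fold higher in non-beta cells than in the NNAT-negative libraries. Against the NNAT-positive libraries its log2 fold change was −8.38 (SE 0.80, adjusted *p*=0.000124, edgeR's quasi-likelihood test).

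The junction genes showed the same division. *Pecam1* (CD31, ENSMUSG00000020717.19, chr11:106654217-106750628, minus strand) had 250.3, 263 and 255 CPM in non-beta cells. It had 0, 0.0913, 0.111 and 0.109 CPM in the NNAT-negative and 0.871, 0.288, 0 and 0.297 CPM in the NNAT-positive libraries, and was, of the 8 endothelial members, the one with a count in the most beta cell libraries (6 of 8). *Cdh5* (VE-cadherin, ENSMUSG00000031871.9, chr8:104101625-104144511, plus strand) had 135, 156 and 156 CPM in non-beta cells, and a single beta cell library, NNAT-positive of mouse 1, held any count of it (9 counts, 0.253 CPM). *Cdh5* was at least 6644-fold higher in non-beta cells than in the NNAT-negative libraries by the floor of 3 counts over the group. The log2 fold changes in the NNAT-positive libraries were −9.48 (SE 0.47, adjusted *p*=2.18e-07) for *Pecam1* and −10.85 (SE 0.52, adjusted *p*=3.83e-06) for *Cdh5* in edgeR's quasi-likelihood test. For *Pecam1* in the NNAT-negative libraries the value was −11.53 (SE 0.55, adjusted *p*=1.5e-07, same edgeR test).

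The products of specialised endothelium were abundant in non-beta cells. *Esm1* (ENSMUSG00000042379.8, chr13:113209659-113218098, plus strand) had 204, 237 and 241 CPM in non-beta cells, 0 counts in the 4 NNAT-negative libraries, and 0.983, 0, 0.0523 and 0.137 CPM in the NNAT-positive libraries. It was at least 10149-fold higher in non-beta cells than in the NNAT-negative libraries by the floor of 3 counts over the group. Adjusted *p* values in the NNAT-negative libraries were 7.26e-05 for *Tek*, 3.42e-06 for *Cdh5* and 1.94e-05 for *Esm1* in edgeR's quasi-likelihood test. *Plvap* (ENSMUSG00000034845.6, chr8:71497765-71511752, minus strand) had 578, 616 and 736 CPM in non-beta cells. It had 0.444, 0, 0.0832 and 0 CPM in the NNAT-negative and 2.47, 0, 0.157 and 0.0913 CPM in the NNAT-positive libraries. The log2 fold changes in the NNAT-positive libraries were −9.49 (SE 0.68, adjusted *p*=2.78e-05) for *Esm1* and −9.95 (SE 0.81, adjusted *p*=4.99e-06) for *Plvap* in edgeR's quasi-likelihood test. For *Plvap* in the NNAT-negative libraries it was −12.19 (SE 0.93, adjusted *p*=2.95e-06, same edgeR test).

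Each of the 9 members was thus called in both beta fractions against non-beta cells, 1 (*Vegfa*) higher and 8 lower. Over all tested genes, 6.13% were called higher and 15.5% lower in the libraries labelled NNAT-positive, and 6.18% higher and 17.1% lower in those labelled NNAT-negative. The 8 endothelial members passed the count filter through the non-beta libraries alone: when non-beta cells were left out of the fit, *Vegfa* was the 1 member that passed. A member kept in this way had to differ, so the count describes the members and supports nothing further. Without the filter the same 9 were called.

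Levels of different genes were compared per kilobase of exon, as mean CPM per kilobase in the 3 non-beta libraries. *Plvap* was highest with 324 ± 41.3, followed by *Esm1* with 109 ± 9.75, *Kdr* with 64.2 ± 1.71, *Pecam1* with 41.1 ± 1.07, *Flt1* with 35.8 ± 3.46, *Cdh5* with 35.4 ± 2.90, *Vegfa* with 28.2 ± 3.09, *Nrp1* with 27.6 ± 2.11 and *Tek* with 16.7 ± 0.35 (SD, *n*=3). The ranges of *Flt1* and *Cdh5* overlapped, as did those of *Vegfa* and *Nrp1*, and no other neighbours in this order did. In the beta cell libraries *Vegfa* had 75.6 ± 25.0 CPM per kilobase (NNAT-negative) and 79.7 ± 26.5 (NNAT-positive; SD, *n*=4 each). *Plvap*, at 0.0663 and 0.342 CPM per kilobase, was the highest of the other 8 there. In non-beta cells *Vegfa* thus ranked below 6 of the 8 endothelial members, and in beta cells above all 8. Lengths were the union of annotated exons, so the order also depends on which isoforms are made.

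The endothelial members varied little between the 3 non-beta libraries. Their summed level was 2534, 2672 and 2861 CPM in mice 1 to 3, a coefficient of variation (CV) of 6.11%, and single members had CVs from 2.09% (*Tek*) to 12.8% (*Plvap*). The 18 further endothelial markers summed to 1417, 1208 and 1351 CPM (CV 8.09%), and the 6 endothelial transcription factors (*Erg*, *Fli1*, *Sox7*, *Sox17*, *Sox18* and *Tal1*) to 79.7, 87.7 and 86.0 CPM (CV 4.99%). Some of the 18, picked here after their values were seen, spread more widely than their sum. *Vwf* had 125, 51.5 and 120 CPM and *Cd34* 201, 137 and 145 CPM in mice 1 to 3. *Cldn5* had 298, 34 and 159 counts. Others varied less, such as *Robo4* with 56.3, 56.2 and 53.7 CPM. The CV of a sum therefore does not describe each gene in it. All 18 and all 6 were called lower in both beta fractions, though with DESeq2 3 of the 6 transcription factors were. Among all tested genes the share called lower was 15.5% in NNAT-positive and 17.1% in NNAT-negative libraries. Genes without a count in beta cells, such as *Gpihbp1*, *Sox17* and *Tal1*, passed the count filter through non-beta cells alone and had to differ. Lists of several other cell types spread more widely between the same libraries, though the lymphatic list (CV 4.95%) did not, and the duct list had a CV of 15.1%. The lymphatic sum was mostly *Prox1*, with 137, 200 and 181 CPM in mice 1 to 3. Its other genes spread widely, *Lyve1* with 60.6, 20.5 and 19.4 CPM and *Pdpn* with 29.4, 13.3 and 11.2 CPM. The mural list ranged from 1013 to 1902 CPM, the fibroblast list from 3227 to 7917 CPM, the leukocyte list from 515 to 1171 CPM and the acinar list from 13085 to 49826 CPM. The non-beta library of mouse 1 was the highest of the 3 for mural, fibroblast and leukocyte genes and the lowest for acinar, alpha and delta genes. The alpha cell list, which *Gcg* dominated, was by far the largest with 119264, 167132 and 144304 CPM. The part that these other cells take in the non-beta level of *Vegfa* was not tested.

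**Figure D2:**
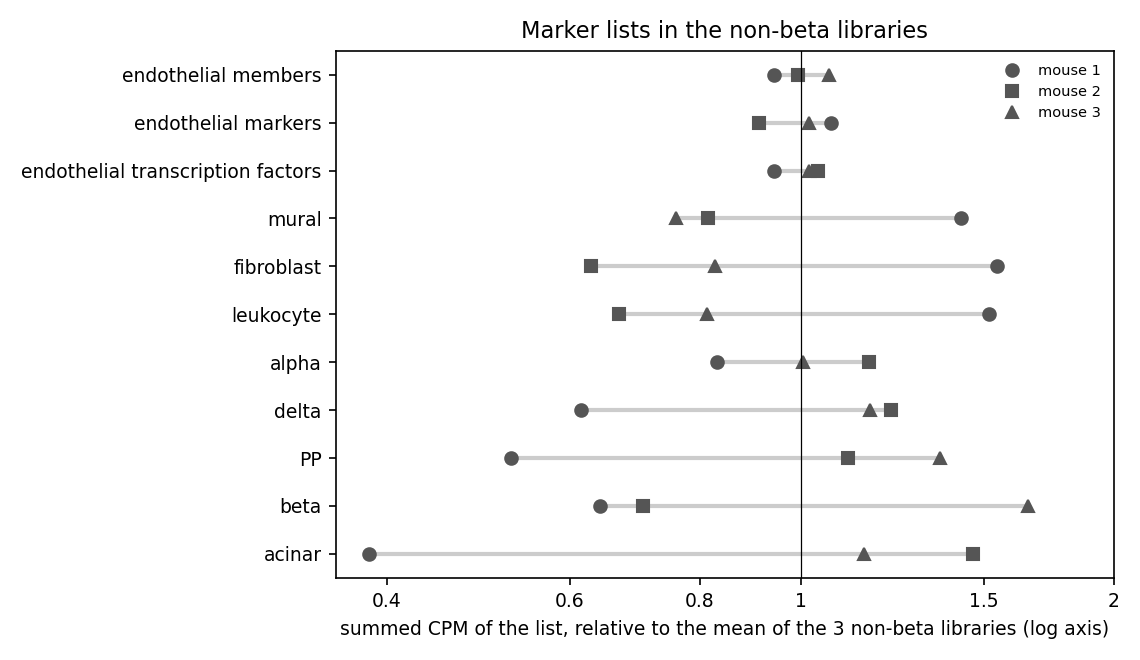
Summed CPM of each marker list in the non-beta library of mice 1 to 3, relative to the mean of the 3 libraries (log axis), with a bar from the lowest to the highest library. The 3 endothelial lists stayed within a narrow range (highest over lowest 1.10 to 1.17), whereas the acinar list spread 3.81-fold and the fibroblast list 2.45-fold.

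The counts of endothelial members that beta cell libraries did hold came mostly from 1 library. The 8 members together had 387 counts in the NNAT-positive library of mouse 1, against 16, 12 and 70 in those of mice 2, 3 and 4 and 30, 5, 15 and 12 in the NNAT-negative libraries of mice 1 to 4. The non-beta libraries held between 100914 and 117564. All 8 members were highest among the 8 beta cell libraries in this library, and each was there at 0.188% (*Cdh5*) to 1.05% (*Tek*) of its level in the non-beta cells of the same mouse. In the other 5 beta cell libraries of mice 1 to 3 none was above 0.109% of that level. Within the 387 counts, *Flt1* made up 25.3%, *Plvap* 22.7%, *Kdr* 13.4%, *Nrp1* 11.4% and *Cdh5* 2.33%, against 17.1%, 22.8%, 22.3%, 11.4% and 5.32% in the non-beta library of mouse 1. Of the 18 further endothelial markers, 9 were also highest in this library among the 8 beta cell libraries. The 18 summed to 22.3 CPM there, against 13.1 to 21.2 CPM in the other 7. Most of that sum was *Cd93* (6.29 CPM), *Ramp2* (6.18 CPM) and *Esam* (4.97 CPM), which had counts in every beta cell library. Of the 6 endothelial transcription factors, 5 were at 0 counts in this library. The alpha list was also highest in this library among beta cell libraries (3528 CPM, others 1054 to 3102 CPM). So was the fibroblast list (4.52 CPM, others at most 2.53 CPM). The leukocyte list (79.2 CPM, others at most 74.7 CPM) and the lymphatic list (110.02 CPM, others at most 109 CPM) were too. Those sums were mostly *C1qa* (71.7 CPM) and *Prox1* (93.8 CPM), each of which was higher in another beta cell library. Every beta cell library held both, at 44.2 to 74.7 CPM and 64.7 to 97.4 CPM. Of the 8 leukocyte genes 4, and of the 3 lymphatic genes 2, were highest in the NNAT-positive library of mouse 1. The part of RNA from other cell types in the endothelial counts was not tested. The list of secreted modulators, described below, also peaked in this library (19.8 CPM, others 9.94 to 17.2 CPM), and 3 of its 8 genes were highest there. Several further lists did not peak in this library. It had 0.899 CPM of the mural list (other beta cell libraries 0 to 3.03 CPM). It had 1850 CPM of the delta list (others 517 to 2408.5 CPM) and 108 CPM of *Ppy* (others 27.9 to 178 CPM). Its acinar list was at 79.8 CPM, against 1765 CPM in the NNAT-positive library of mouse 2 (the other beta cell libraries had 12.4 to 369 CPM), so acinar and endothelial genes did not peak in the same library.

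Without the NNAT-positive library of mouse 1, the 9 members were called as before in both comparisons with non-beta cells. Pooled over the remaining 3 NNAT-positive libraries, *Kdr* was 4211 times and *Plvap* 7897 times as high in non-beta cells, against 1336 and 1038 times with the library included. *Flt1*, with 3 counts left, was 19798 times as high (95% Clopper-Pearson interval 6774 to 96007, counting error only), against 757 times with it. The size of the difference from NNAT-positive libraries therefore rested on that library. The endothelial members passed the count filter through non-beta cells alone, so their unchanged call supports nothing further. Among the NNAT-negative libraries, that of mouse 1 held 17 of the 19 *Kdr* counts and 13 of the 16 *Plvap* counts. When each mouse was left out in turn, the log2 fold change of *Kdr* ran from −13.00 (without mouse 1) to −9.60 (without mouse 2) for NNAT-positive and from −15.62 to −11.24 for NNAT-negative libraries, and that of *Plvap* from −12.88 to −9.14 and from −14.31 to −11.50, without the same mice. The NNAT-negative values without mouse 1 rest on 2 counts of *Kdr* and 3 of *Plvap* and are no bounds. All 9 members were called in each of these fits.

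**Figure D3:**
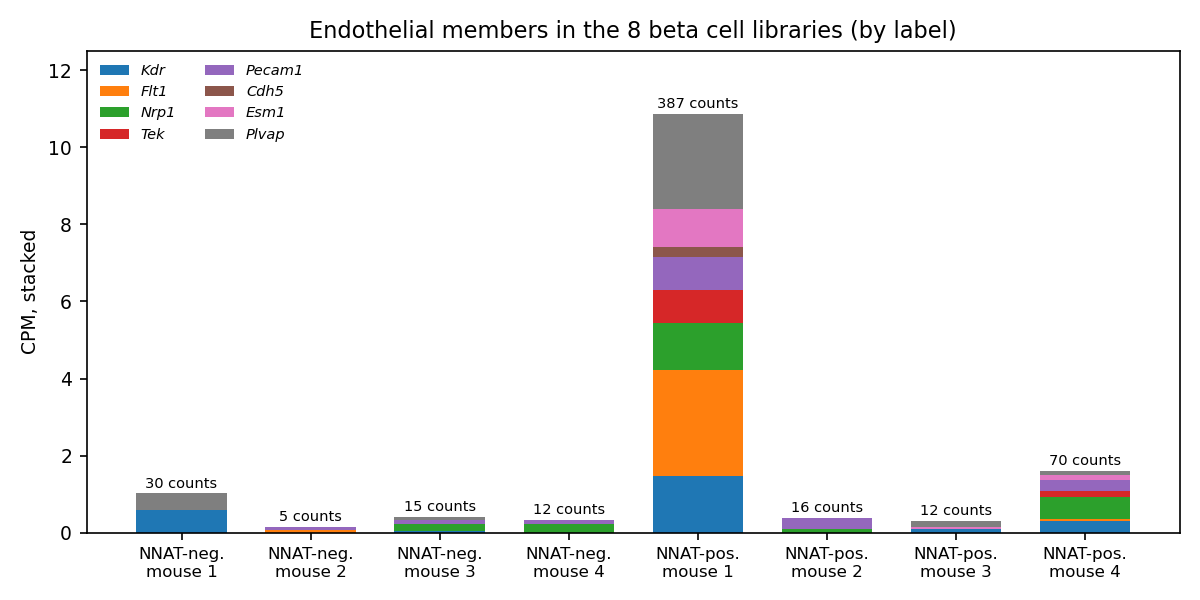
Stacked CPM of the 8 endothelial members in each beta cell library, by its label and mouse, with the summed counts above each bar. The NNAT-positive library of mouse 1 held 387 counts and the other 7 libraries between 5 and 70.

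Both beta cell fractions were compared by their labels to ask whether they differ in the ligand or in traces of its receptors. None of the 9 members was called in edgeR's quasi-likelihood test, 1 (*Flt1*) had an unadjusted *p* under 0.05, and DESeq2 called 0. Over all tested genes, 0.0459% (8 genes) were called higher in the NNAT-positive libraries, with 839 higher at an unadjusted *p* under 0.05. The share called lower was 0% in edgeR's test, with 130 genes at an unadjusted *p* under 0.05 and 6 genes called by DESeq2. In 4 of 4 mice *Vegfa* was higher under the label NNAT-positive, with differences in log2 CPM of 0.01, 0.20, 0.02 and 0.09. Its fitted log2 fold change was 0.08 (SE 0.09, adjusted *p*=0.957, edgeR's quasi-likelihood test), with a 95% interval from −0.12 to 0.28. A difference of 2-fold either way thus lay outside the interval. The endothelial members had fitted log2 fold changes from 1.57 (*Kdr*) to 6.36 (*Esm1*), with adjusted *p* values from 0.858 to 0.918 in the same edgeR test. Those of *Tek*, *Cdh5* and *Esm1* were set against groups at 0 counts and are no bounds. Without the NNAT-positive library of mouse 1, the fitted values ran from −0.41 (*Plvap*) to 4.14 (*Esm1*).

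Mouse 4 had the highest *Vegfa* in both beta fractions. Its 512 CPM in the NNAT-positive library were 1.80 times the mean of mice 1 to 3 (285 ± 4.42 CPM, SD, *n*=3), and its 482 CPM in the NNAT-negative library 1.78 times (271 ± 23.6 CPM, SD, *n*=3). *Vegfb* went the other way in the same libraries, at 26.7 and 27.3 CPM against 40.8 to 46.0 CPM in mice 1 to 3. Among the 8688 tested genes with a mean of at least 10 CPM in beta cells, the median difference of mouse 4 from the other mice was −0.07 on the log2 scale and that of *Vegfa* 0.84, and 544 genes (6.26%) lay above *Vegfa*. The insulin genes took 18.0% and 17.8% of the counts of mouse 4 and 24.0% to 34.4% in the other beta cell libraries. Mouse 4 had no non-beta library, so whether its non-beta cells shared this level was not analysed here, and the part of these differences in its *Vegfa* was not tested. Without mouse 4, the log2 fold changes of *Vegfa* against non-beta cells were 1.23 for NNAT-positive and 1.19 for NNAT-negative libraries.

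**Figure D4:**
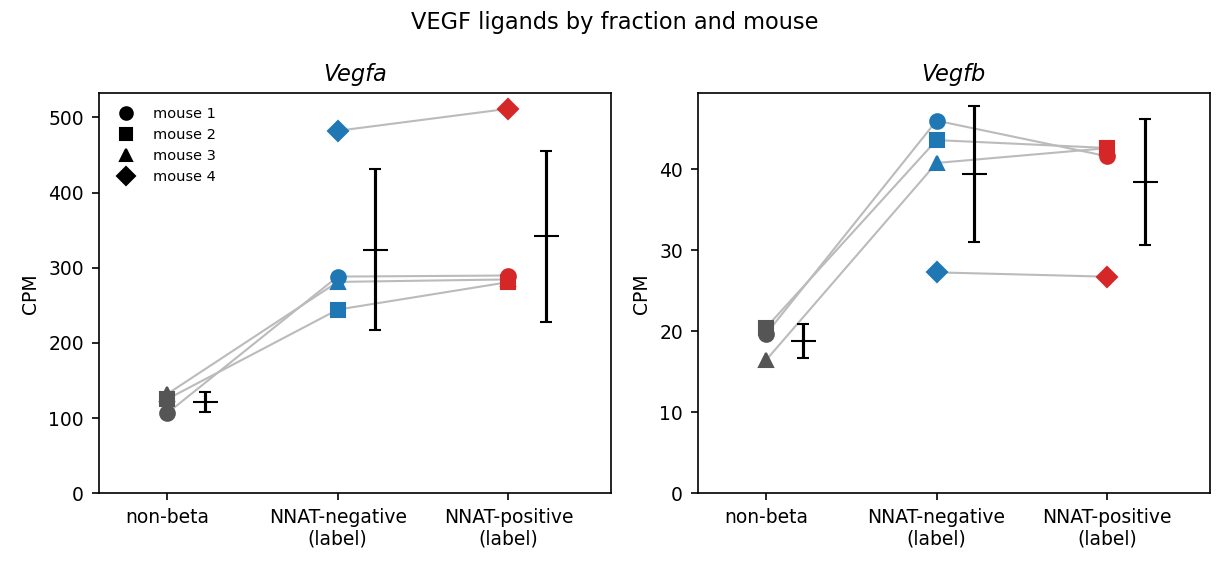
CPM of *Vegfa* (left) and *Vegfb* (right) in each library by fraction label, with a symbol for the mouse, lines joining libraries of one mouse, and black bars for the mean ± SD (*n*=3 for non-beta, 4 for each beta fraction). In mice 1 to 3 both ligands rose from non-beta to beta cells, and mouse 4 was highest for *Vegfa* and lowest for *Vegfb* among the beta cell libraries.

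Of the 4 other VEGF ligands, 1 was higher and 3 were lower in beta cells. Among all tested genes, 6.13% were called higher and 15.5% lower in NNAT-positive libraries. In NNAT-negative libraries the shares were 6.18% and 17.1%. *Vegfb*, a ligand of FLT1 alone among the VEGF receptor kinases, had 19.6, 20.4 and 16.4 CPM in non-beta cells, 46.0, 43.6, 40.8 and 27.3 CPM in the NNAT-negative and 41.6, 42.6, 42.6 and 26.7 CPM in the NNAT-positive libraries. Its groups did not overlap, and its log2 fold changes were 1.17 (SE 0.10, adjusted *p*=8.56e-06) and 1.21 (SE 0.10, adjusted *p*=6.4e-06) for NNAT-positive and NNAT-negative libraries in edgeR's quasi-likelihood test. *Vegfc* and *Vegfd*, which signal through FLT4 in lymphatic vessels, fell by 1.86 and 3.52 on the log2 scale in NNAT-positive libraries and by 1.65 and 3.82 in NNAT-negative libraries. *Pgf* (placental growth factor, a FLT1 ligand) fell by 1.12 and 1.49. Per kilobase of exon, *Vegfa* was the highest of the 5 ligands in each fraction, with *Vegfb* next at 11.7 CPM per kilobase in non-beta cells, 24.6 in NNAT-negative and 23.9 in NNAT-positive libraries. Without mouse 3, the 3 falls were no longer called in the NNAT-positive libraries.

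The remaining receptors followed *Kdr* and *Flt1*. *Flt4* (VEGF receptor 3) had 68.9, 47.1 and 53.6 CPM in non-beta cells and 0 counts in all 8 beta cell libraries. *Nrp2* had 67.7, 40.7 and 42.4 CPM in non-beta cells and at most 1.81 CPM in a beta cell library. Both were called lower in both beta fractions. *Flt4* passed the count filter through non-beta cells alone and had to differ. In the angiopoietin and Tie list, 5 of 5 genes were called lower in NNAT-negative and 4 of 5 in NNAT-positive libraries. The shares of all tested genes called lower there were 17.1% and 15.5%. *Ptprb* (VE-PTP, an endothelial phosphatase that acts on TEK) had 259 to 290.1 CPM in non-beta cells and at most 0.525 CPM in beta cells, and *Tie1* had 121 to 145 CPM and at most 0.365 CPM. The exception was *Angpt2*, an angiopoietin that can block TEK, with 9.76 to 14.2 CPM in non-beta and 2.59 to 8.17 CPM in beta cell libraries. For the NNAT-positive libraries the 95% interval of its log2 fold change ran from −1.66 to −0.35 (edgeR, adjusted *p*=0.0171).

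Genes downstream of the receptors were divided. In the list of VEGF receptor signal genes, 1 of 6 was called higher (*Prkcb*, a protein kinase C) and 1 lower (*Nos3*, the endothelial nitric oxide synthase) in each beta fraction. *Nos3* had 14.4, 13.1 and 18.5 CPM in non-beta cells and at most 0.837 CPM in beta cells. *Prkcb* had 45.6 to 54.3 CPM in non-beta cells and 95.7 to 174 CPM in beta cells, and *Plcg1*, *Shb*, *Sh2d2a* and *Ptk2* were not called. All 6 tip and stalk genes, which mark or set apart the leading and following cells of a vascular sprout, were called lower in both fractions. Among all tested genes, 6.13% were called higher and 15.5% lower in NNAT-positive libraries, and 6.18% and 17.1% in NNAT-negative libraries. *Aplnr* passed the count filter through non-beta cells alone and had to differ. *Aplnr* had 26.4 to 27.7 CPM in non-beta cells and 0 counts in all 8 beta cell libraries, whereas *Notch1* kept 26.7 to 36.9 CPM in beta cells against 114 to 137 CPM in non-beta cells. Of the 8 secreted modulators, 7 were called lower in each fraction, among them *Thbs1* (thrombospondin 1, an inhibitor of angiogenesis) with 206 to 283 CPM in non-beta cells and at most 1.77 CPM in beta cells. *Sema3a*, a semaphorin that binds NRP1, was not called.

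HIF transcription factors raise *Vegfa* in low oxygen, and their genes and regulators formed the hypoxia control list. Of its 9 genes, 8 passed the count filter, and 1, *Epas1* (HIF-2α), was called, lower in both fractions. Among all tested genes the share called lower was 15.5% in NNAT-positive and 17.1% in NNAT-negative libraries. *Epas1* had 296, 297 and 280 CPM in non-beta cells and between 0.205 and 1.30 CPM in beta cell libraries. *Hif1a* had 81.9 to 109 CPM in non-beta cells and 73.3 to 102 CPM in beta cells, so that its groups overlapped. Its log2 fold changes were 0.00 (SE 0.09) for NNAT-positive and 0.09 (SE 0.09) for NNAT-negative libraries, and edgeR's quasi-likelihood test gave an adjusted *p* of 0.978 and 0.435. *Arnt* (the partner of both HIF proteins), *Vhl*, the prolyl hydroxylases *Egln1*, *Egln2* and *Egln3* and the HIF hydroxylase *Hif1an* were not called. RNA levels do not show HIF activity, which depends on protein stability. Between the beta fractions, no gene of the ligand, receptor, angiopoietin, signal, tip and stalk, hypoxia or modulator lists was called in edgeR's test, and DESeq2 called 1 (*Nrp2*, higher in NNAT-positive libraries). At an unadjusted *p* under 0.05 in edgeR's test there were 5 of 39 genes, *Nrp2*, *Angpt2*, *Epas1* and *Sema3e* higher and *Notch1* lower in the NNAT-positive libraries, beside 839 higher and 130 lower of all 17424 tested genes.

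**Figure D5:**
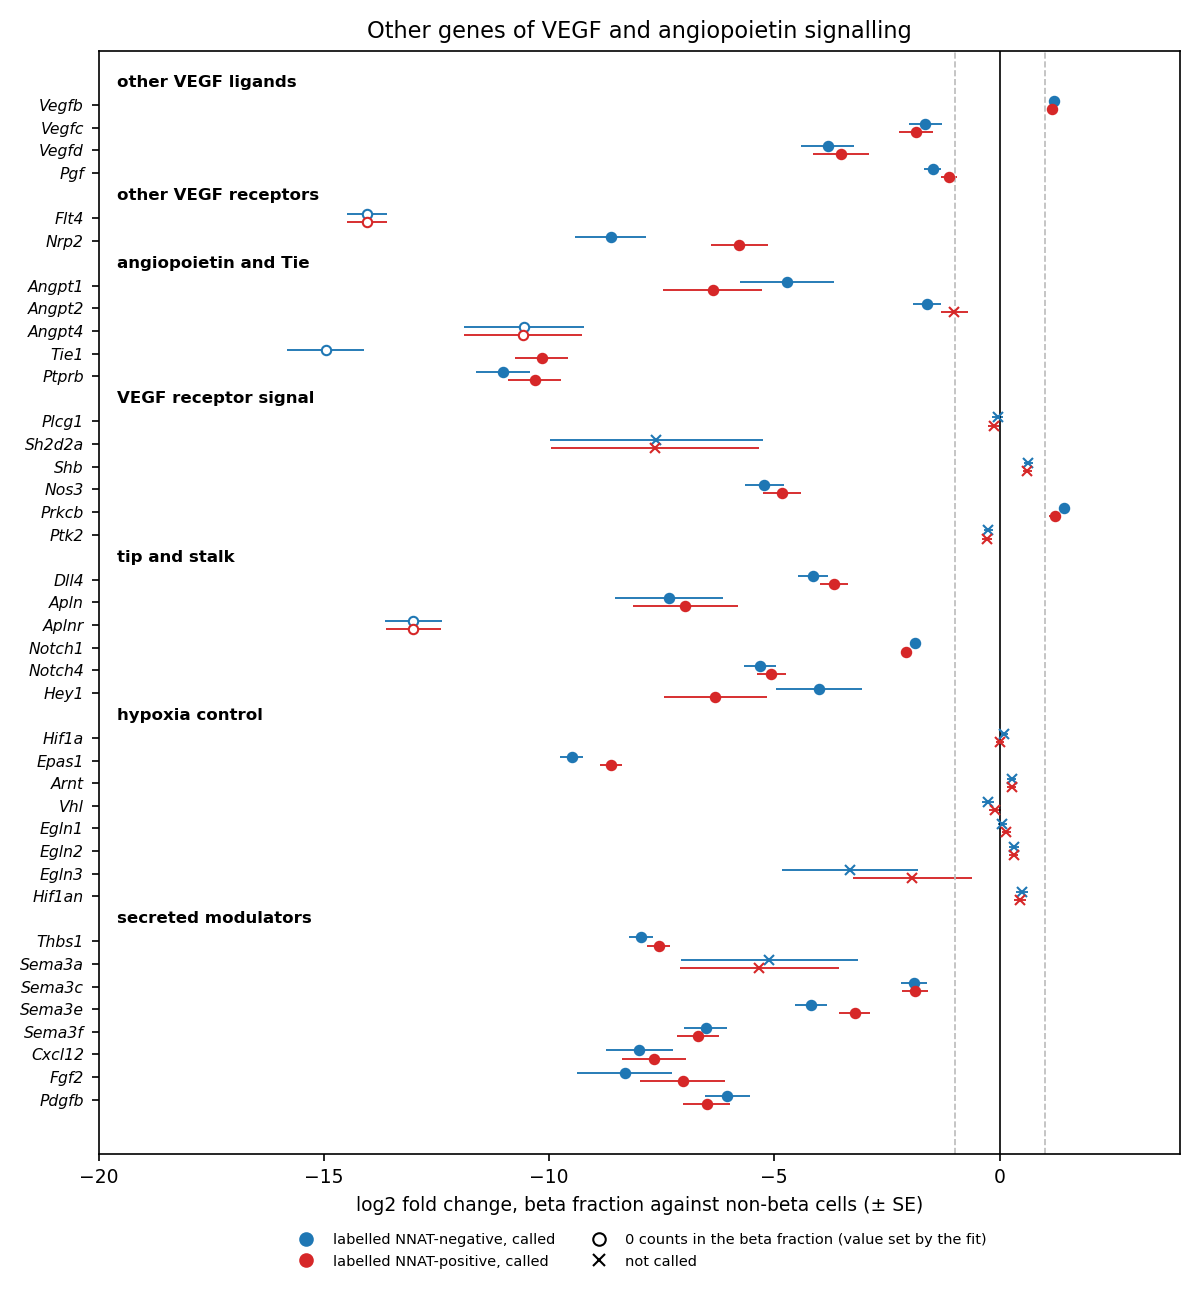
Fitted log2 fold change (± SE) of each tested gene of the 7 pathway lists in the libraries labelled NNAT-negative (blue) and NNAT-positive (red) against the same 3 non-beta libraries. Dashed lines mark a 2-fold change. Open circles mark called genes with 0 counts in the beta fraction. Crosses mark genes not called, among them *Sh2d2a*, which also had 0 counts in beta cells. *Vegfb* and *Prkcb* were the 2 genes called higher, and receptor, Tie and tip and stalk genes lay to the left.

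Over the 11 libraries, the likeness of 2 profiles was taken as the root mean square difference of their centred log2 CPM, as a description. The 5 genes nearest to *Vegfa* among 17415 were *Araf* (0.10), *Cdk8* (0.10), *Pikfyve* (0.14), *Tfrc* (0.17) and *Sfxn2* (0.18). They too were higher in beta cells, as for *Araf* with 58.1 CPM in non-beta cells and 165 and 166 CPM in the NNAT-negative and NNAT-positive libraries. Nearest to *Kdr*, members aside, were *Nid1* (0.75), *Aebp1* (0.86), *Col3a1* (0.96), *Igfbp3* (1.08) and *Tie1* (1.09). Among the members, *Plvap* (0.49) was nearer to *Kdr* than any other tested gene, *Esm1* (0.97) was the 5th and *Cdh5* (1.13) the 8th, and *Vegfa* lay at 6.03. For genes near 0 in beta cells, these distances rest on a few counts per library.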

How the data were processed

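Islets were isolated with Liberase and a Histopaque gradient, hand-picked and dispersed with Accutase, and live cells were sorted by tdTomato and eGFP. Poly(A) libraries were made with the NEBNext Ultra II Directional kit. The authors aligned the reads with STAR 2.7.1a to mm10 and deposited 1 table of raw gene counts made with STAR on gencode vM25. The strand setting of the counting is not given in the sources used here. Libraries with the same number came from the same mouse. Deviations from the fraction means correlated within a mouse at *r*=0.18 to 0.66 over the 4 pairs of beta fractions and at 0.03 to 0.12 over the 6 beta and non-beta pairs, and the mouse was kept as a block because the animals were shared.

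The counts of all 11 libraries were tested in R 4.3.3 with edgeR 4.0.16 (glmQLFit and glmQLFTest, TMM, filterByExpr by fraction) and the mouse as a block, with Benjamini-Hochberg adjustment over all tested genes. DESeq2 1.42.0 was an alternative, beside RLE factors, library sizes without the 9 genes that took over 1% of any library, no count filter, no block, only the fractions compared, other thresholds and leaving out each mouse. Leaving out the NNAT-positive library of mouse 1 was added after the data were seen. Scripts were tested on simulated data. No 2 libraries were identical (0 of 55 pairs). Intervals and floors cover counting error only. Coordinates and exon lengths are those of GRCm38 in gencode M21, which held all 123 listed genes but is not the release the counts were made with.

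The members and gene lists were chosen with earlier results of these data known. All members are named. Of each pathway list at most 4 genes were to be named: the highest mean CPM, the largest fold change in each direction among called genes, and those needed to give a count of 5 or fewer. Exceptions are *Pgf*, *Tie1*, *Angpt2*, *Sema3a*, *Sema3e* and the uncalled genes of the signal and hypoxia lists, named beside their counts. The 5 nearest genes to *Vegfa* and to *Kdr* were named by likeness of profile.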

Additional observations from a re-analysis of the deposited data

Results flagged for a closer look

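In groups of 4 libraries, the highest or lowest value was flagged where its gap to the next exceeded the 95% limit of Dixon's test for 4 values, and chance flags about 1 in 20 groups. Of 15 groups examined, 8 were flagged, a number that cannot be set against that rate. *Vegfa* was flagged in the NNAT-positive library of mouse 4 (512 CPM, the others 281 to 289.6 CPM). Its NNAT-negative library was also the highest of its group, at 482 CPM.

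In the NNAT-positive library of mouse 1, 5 endothelial members were flagged as the highest of 4. They were *Flt1* at 2.75 CPM (98 counts), *Tek* at 0.843 CPM (30 counts), *Cdh5* at 0.253 CPM (9 counts), *Esm1* at 0.983 CPM (35 counts) and *Plvap* at 2.47 CPM (88 counts). The same genes had 433, 80.4, 135, 204 and 578 CPM in the non-beta library of that mouse. These flags come from 1 library and are not independent of each other.

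Among the NNAT-negative libraries, *Kdr* was flagged in mouse 1 (0.580 CPM, 17 counts). *Flt1* was flagged in mouse 2 (0.0609 CPM), where it rested on 2 counts, under the floor of 3.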

How the results depend on the processing

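The number of members called was the same in all 39 recomputed values, 9 in each comparison with non-beta cells and 0 between the beta fractions. For the endothelial members, which passed the count filter through non-beta cells alone, the unchanged calls against those cells support nothing further. With only the beta fractions in the fit, 1 of 9 members (*Vegfa*) could be tested. Without the replicate block, *Vegfa* had log2 fold changes of 1.497 (adjusted *p*=0.00104, edgeR) and 1.42 (adjusted *p*=0.00133, edgeR) against non-beta cells, and all 9 members were called in both. Over the alternatives the change of *Vegfa* ran from 1.14 to 1.497 for NNAT-positive and from 1.04 to 1.42 for NNAT-negative libraries, and between the beta fractions from 0.04 to 0.10. Of the members' log2 fold changes, 314 alternatives kept the direction and side of the threshold and 2 reversed. These were *Cdh5* (−0.040) and *Plvap* (−0.41) between the beta fractions without the NNAT-positive library of mouse 1. Leaving out single replicates moved *Cdh5* there between −0.040 and 4.62, and *Plvap* between −0.41 and 2.40. The non-beta levels of *Kdr* (602 and 613 CPM), *Tek* (81.9 and 83.5 CPM) and *Pecam1* (266 and 271 CPM) moved by more than 1 SD with RLE factors and with unscaled totals. Over all genes, 8 calls between the beta fractions became 86 with DESeq2, 26 without the filter, 16 at an adjusted *p* under 0.05 and 1 without the block, and 0 to 5 without 1 mouse. Without a fold limit, calls against non-beta cells went from 3765 to 6072 (NNAT-positive) and from 4056 to 6420 (NNAT-negative). Of 3 other VEGF ligands called lower in NNAT-positive libraries, 0 were left without mouse 3 and 2 without mouse 1. Of 6 endothelial transcription factors, 3 were called lower with DESeq2. Of 5 angiopoietin and Tie genes lower in NNAT-negative libraries, 3 were left without mouse 1. The causes were not tested. Below about 0.1 CPM, the level of 3 counts, members could not be told from 0.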

Other observations

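Not all endothelial markers were as low in beta cells as the members, and the genes named here were chosen after their values were seen. *Esam*, an endothelial adhesion molecule, had 75.6 to 87.7 CPM in non-beta cells and 4.97 to 10.8 CPM in the 8 beta cell libraries. *Cd93* had 109 to 125 CPM and 1.91 to 7.70 CPM. *Ramp2*, part of the adrenomedullin receptor, had 18.8 to 29.2 CPM and 3.63 to 7.54 CPM, but shared 1103 exonic bases with *Vps25* on the same strand, so that the counting could not tell all their reads apart. These 3 genes had counts in every beta cell library, whereas *Flt4* had none in any. Among the leukocyte markers, *C1qa* had 44.2 to 74.7 CPM in beta cell libraries, while *C1qb*, a subunit of the same complement complex, had at most 0.610 CPM.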
